A study of Mus musculus with 24 samples.

Results

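The insulin-like growth factor system was examined in RNA-seq data of mouse striatum through 10 genes: the 2 ligands Igf1 and Igf2, the 2 receptors Igf1r and Igf2r, and the 6 binding proteins Igfbp2 to Igfbp7. The genes were taken by symbol from 6 tables that share 24340 genes, and all 10 were found in every table, none of them listed at 0 in any group. The animals were male R6/1 mice, hemizygous for a transgene with the first exon of human HTT and an expanded CAG repeat on the C57BL/6J background, and their wild type (WT) littermates. R6/1 is a model of Huntington's disease, in which the striatum is the most affected region, and its transgene, driven by the human HTT promoter, is not limited to a chosen cell type. Injections began at an age of 11 to 14 weeks and the animals were killed at 14 to 17 weeks. They received RGFP109, an inhibitor of the histone deacetylases HDAC1 and HDAC3, at 30 mg/kg into the peritoneum 5 times a week for 3 weeks, or an equal volume of vehicle, so every animal, the controls included, went through the same series of injections. Tissue was taken 18 h after the last injection. Of the 24 libraries, 5 were WT-vehicle, 6 R6/1-vehicle, 6 WT-RGFP109 and 7 R6/1-RGFP109, each from the dissected striatum of 1 hemisphere.

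Both ligands signal through the type 1 receptor, a tyrosine kinase encoded by Igf1r that activates the PI3K-AKT and MAPK cascades and promotes growth and survival. The receptor encoded by Igf2r has no kinase activity and removes IGF2 from the cell surface for breakdown in lysosomes. Most ligand outside cells is held by binding proteins, which lengthen its half-life and either block or aid its access to the receptor, and which are cut by proteases such as the one encoded by Htra1. In the adult rodent brain Igf2 is known to be made mainly by choroid plexus and meninges, whereas Igf1 comes from scattered neurons and glia and from the circulation.

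Each table compares 1 pair of groups and gives 1 FPKM value per group, that is, fragments scaled by transcript length and library size. These are the authors' pooled values. Values per mouse and the authors' own test results were not used here, so no test was made, and every difference below is a description of 4 group values with no replicate check. Read counts were not used here, and depth is unknown. Each group stands in 3 tables that were scaled separately, and its 3 readings differed by a nearly common factor, with a median of the highest over the lowest reading of 1.03 to 1.04 in the 4 groups. Levels are therefore given as the mean of the 3 readings, and ratios were taken inside a table, as log2 ratios after adding 0.05 FPKM. A gene was counted as past the fold when its log2 ratio was beyond 0.5 in either direction, a 1.41-fold difference. As background, the same count was made over all genes with over 0.1 FPKM in at least 1 of the 2 groups.

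Igfbp4, Igfbp5 and Igfbp2 were lower in R6/1 mice under both treatments, and the sequences before a transcript start of each are shown first. RefSeq (GRCm38.p6, the patched release of mm10) places Igfbp4 on chromosome 11 from 99040005 to 99052655. The Igfbp4 transcript start used here, 99041244, and the window before it lie inside this span. Igfbp2 lies on chromosome 1 from 72824480 to 72852474, and Igfbp5 follows it on the same chromosome from 72858065 to 72874865, on the opposite strand, with 5590 bases between their 3′ ends. The windows below are the 250 bases before a RefSeq transcript start, 5′ to 3′ on the strand of the gene, at chr11:99040994-99041243 (plus strand) for Igfbp4, chr1:72874866-72875115 (minus strand) for Igfbp5 and chr1:72824230-72824479 (plus strand) for the first start of Igfbp2. Capitals mark a TATA box (TATAAA), a GC box (GGGCGG) or an E-box (CACGTG), searched on both strands with no overlap between them.
Igfbp4: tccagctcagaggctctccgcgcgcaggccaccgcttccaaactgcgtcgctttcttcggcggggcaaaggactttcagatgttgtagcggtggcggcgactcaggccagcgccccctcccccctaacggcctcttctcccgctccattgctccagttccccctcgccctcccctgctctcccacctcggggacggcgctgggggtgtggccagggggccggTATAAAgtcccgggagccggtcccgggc
Igfbp5: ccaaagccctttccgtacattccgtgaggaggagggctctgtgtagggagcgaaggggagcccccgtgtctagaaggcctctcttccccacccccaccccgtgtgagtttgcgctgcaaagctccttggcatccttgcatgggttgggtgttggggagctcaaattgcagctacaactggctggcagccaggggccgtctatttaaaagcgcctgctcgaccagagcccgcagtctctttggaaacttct
Igfbp2: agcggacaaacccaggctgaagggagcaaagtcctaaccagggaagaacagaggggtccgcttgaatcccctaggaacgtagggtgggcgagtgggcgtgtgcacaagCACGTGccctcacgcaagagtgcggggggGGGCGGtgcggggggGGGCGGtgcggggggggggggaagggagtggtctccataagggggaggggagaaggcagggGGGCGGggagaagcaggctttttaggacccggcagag
The Igfbp4 window held 1 TATA box, 28 bases before the start, and the Igfbp2 window held 3 GC boxes and 1 E-box. The Igfbp5 window held none of these letters. Of 32851 such windows over all genes, 12.4% held the TATA box, 32.7% the GC box and 6.02% the E-box. The GC content was 69.2% for Igfbp4, 58.8% for Igfbp5 and 67.2% for Igfbp2, against a median of 52.4% over all windows. Over the 14 windows of the 10 members, 2 members had a TATA box (Igfbp4 and Igfbp6), 5 had a GC box and 2 had an E-box (Igfbp2 and Igf2r). The Igfbp6 match was on the other strand, 148 bases before the start. The 3 genes thus had no motif in common among those searched, and a match is only a match of letters.

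Igfbp4 and Igfbp5 were the most abundant members in WT-vehicle striatum and Igf1 the least abundant, whereas Igfbp2 was the most abundant in R6/1-vehicle. Igfbp4, which encodes a binding protein known mainly as an inhibitor of ligand action, had 38.7 FPKM in WT-vehicle and 13.9 in R6/1-vehicle, and with RGFP109 it had 32.2 in WT and 14.5 in R6/1 mice. Igfbp5, whose protein binds to the extracellular matrix, had 33.6, 15.8, 30.2 and 17.5 FPKM in the same order of groups, which is kept for every list of 4 levels below. For both genes the 2 WT values were high and the 2 R6/1 values low, whichever treatment the mice had received. Igfbp2, whose product is a major binding protein of cerebrospinal fluid, had 27.5 FPKM in WT-vehicle and 16.7 in R6/1-vehicle, and with RGFP109 it had 18.0 in WT and 11.0 in R6/1 mice. Here both factors went with lower values, and the group with both was the lowest.

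Igfbp6, a binding protein with a preference for IGF2, had 23.2, 14.8, 19.3 and 15.0 FPKM. Igfbp7, which encodes a secreted protein of vessels with low affinity for the ligands, had 13.4, 10.6, 12.9 and 10.3 FPKM. Igfbp3, the main carrier of the ligands in serum, was the least abundant binding protein gene, with 5.91, 4.30, 5.11 and 4.47 FPKM. In all 3 genes both R6/1 values lay below both WT values, over a narrower range than in Igfbp4.

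Of the 2 ligand genes, Igf2 alone did not have both R6/1 values below both WT values. Igf2 had 18.7, 15.4, 9.03 and 8.07 FPKM, so both vehicle groups were high and both RGFP109 groups low. Igf1 was below 1 FPKM in every group, with 0.582, 0.466, 0.749 and 0.502 FPKM, the highest in WT-RGFP109. Both R6/1 values of Igf1 lay below both WT values, as in the binding proteins Igfbp2 to Igfbp7. The receptor genes hardly varied. Igf1r had 5.68, 5.71, 5.38 and 6.03 FPKM, and Igf2r had 6.60, 7.19, 6.38 and 6.72 FPKM. The highest over the lowest group value was 2.79 for Igfbp4, 2.51 for Igfbp2, 2.31 for Igf2, 2.13 for Igfbp5, 1.61 for Igf1, 1.57 for Igfbp6, 1.38 for Igfbp3 and 1.30 for Igfbp7. For the receptors it was 1.12 for Igf1r and 1.13 for Igf2r.

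**Figure D1:**
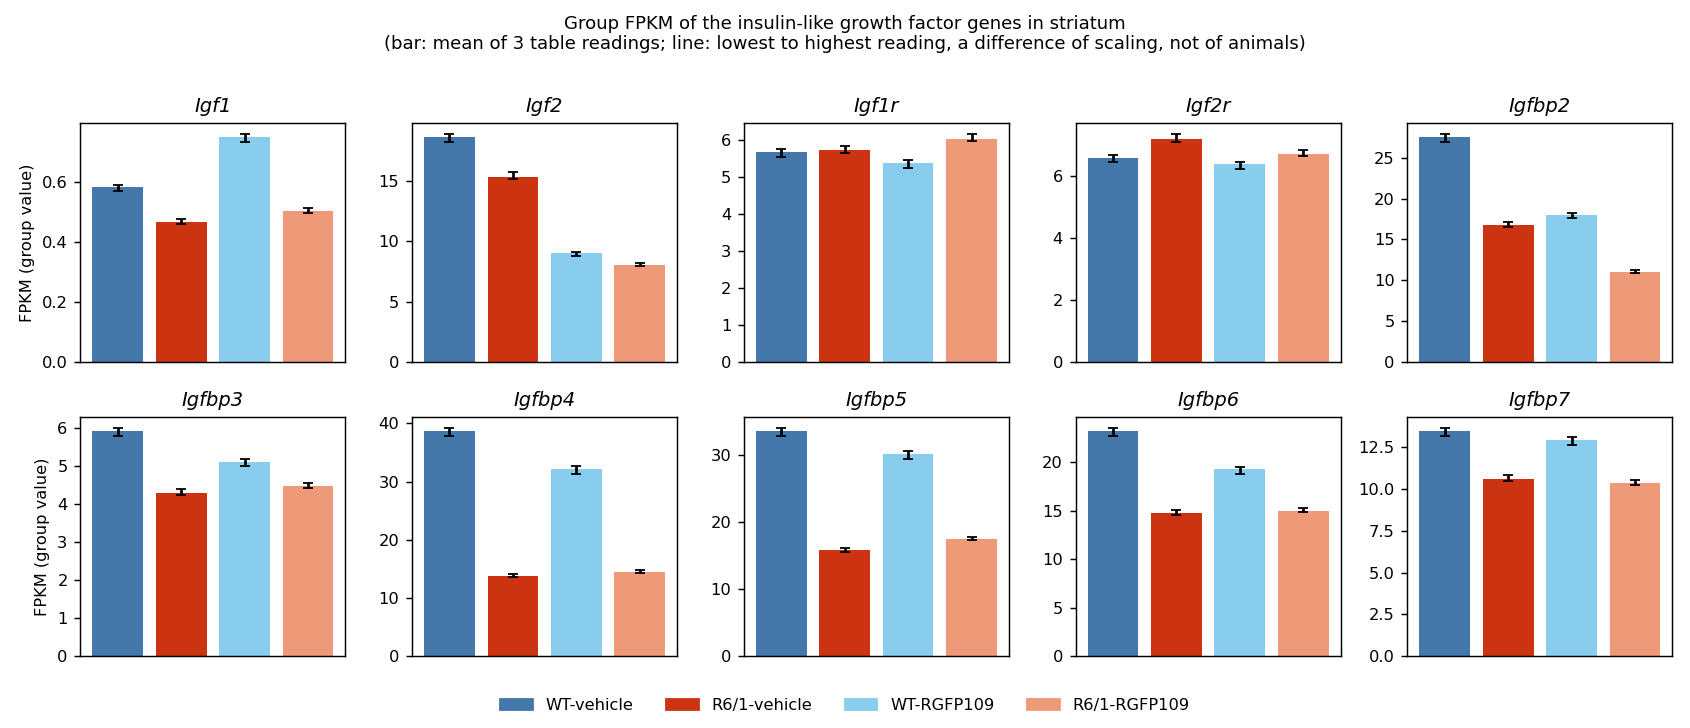
Group FPKM of the 10 genes in striatum, 1 panel per gene, with bars for the mean of 3 table readings and lines from the lowest to the highest reading, which reflect scaling and not animals. Igfbp4 and Igfbp5 are high in both WT groups and low in both R6/1 groups, Igf2 is high in both vehicle groups and low in both RGFP109 groups, and the receptor bars are nearly level.

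Some of these values share sequence with other genes. RefSeq places Igf2 on chromosome 7 from 142650768 to 142666816, where it overlaps the transcripts Igf2os (at most 0.0839 FPKM in any group) and Mir483 (listed at 0). Igf2r, on chromosome 17 from 12682406 to 12769706, overlaps Airn, a noncoding RNA read from the other strand, with 1.03 to 1.18 FPKM. Igfbp7, on chromosome 5 from 77349240 to 77408045, overlaps Polr2b, a subunit of RNA polymerase II, with 21.6 to 25.3 FPKM. The library kit is not stated to keep strand, so reads of an overlap cannot be assigned by strand. For Igfbp7 the R6/1 values were the lower ones while those of Polr2b were the higher ones, 25.3 FPKM in R6/1-vehicle against 21.6 in WT-vehicle. The other members overlap no gene of the tables. Igf1 lies on chromosome 10 from 87858265 to 87937047, Igf1r on chromosome 7 from 67952257 to 68233668, Igfbp3 on chromosome 11 from 7206086 to 7215498 and Igfbp6 on chromosome 15 from 102144186 to 102149512.

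In vehicle-treated mice, R6/1 striatum had less mRNA of binding proteins, with no like difference in the receptors. Igfbp4 had 39.1 FPKM in WT-vehicle and 13.7 in R6/1-vehicle in the table of this pair, a log2 ratio of -1.51 or a 2.86-fold lower value. A lower ratio was found for 1.76% of 16972 genes. Igfbp5 had 33.9 and 15.6 FPKM (log2 ratio -1.12, 2.18-fold lower), Igfbp2 had 27.8 and 16.5 FPKM (log2 ratio -0.75, 1.69-fold lower) and Igfbp6 had 23.5 and 14.6 FPKM (log2 ratio -0.68, 1.61-fold lower). These 4 of the 10 members were lower past the fold, where 13.4% of all genes were, and none was higher past the fold, where 5.84% of all genes were. Igfbp3 stood just short of the fold at a log2 ratio of -0.49, followed by Igfbp7 at -0.38. The ligands were closer to the bulk of genes, Igf1 at -0.32 and Igf2 at -0.31, with 21.4% and 22.1% of genes at a lower ratio. The receptors were at -0.03 for Igf1r and 0.09 for Igf2r. The median log2 ratio was -0.43 over the members and -0.72 over the 6 binding proteins, beside -0.02 over all genes. In bulk striatum, fewer cells of a type and less RNA per cell cannot be told apart.

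The same genotype comparison in mice given RGFP109 used other libraries altogether. In R6/1-RGFP109 against WT-RGFP109, Igfbp4 had 14.4 against 32.6 FPKM, a log2 ratio of -1.18 and a 2.27-fold lower value. Igfbp5 was at -0.82 (17.3 against 30.6 FPKM) and Igfbp2 at -0.75 (10.9 against 18.3 FPKM). Igf1 was at -0.56 (0.497 against 0.758 FPKM), a ratio of low values that shrank to -0.23 when 1 FPKM in place of 0.05 was added. These 4 members were lower past the fold, where 11.7% of all genes were, and none was higher, where 5.39% were. Igfbp6 no longer passed, at -0.39, and Igfbp7, Igfbp3 and Igf2 were at -0.36, -0.22 and -0.19. The receptors were again near 0, Igf1r at 0.13 and Igf2r at 0.04. The binding proteins had a median of -0.57, the members one of -0.37 and all genes one of 0.0001.

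Across both genotype comparisons all 6 binding proteins had a log2 ratio below 0 in each. Over all genes, the share below 0 was 52.5% with vehicle and 50.0% with RGFP109. The 3 members Igfbp2, Igfbp4 and Igfbp5 were lower past the fold in each comparison. Of 16662 genes with a ratio in both comparisons, 7.74% were lower past the fold in each. Of the 3, Igfbp2 had nearly the same ratio under both treatments. For Igfbp4, Igfbp5 and Igfbp6 the ratio was closer to 0 under RGFP109, by 0.33, 0.30 and 0.29 on the log2 scale. These differences were not tested.

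**Figure D2:**
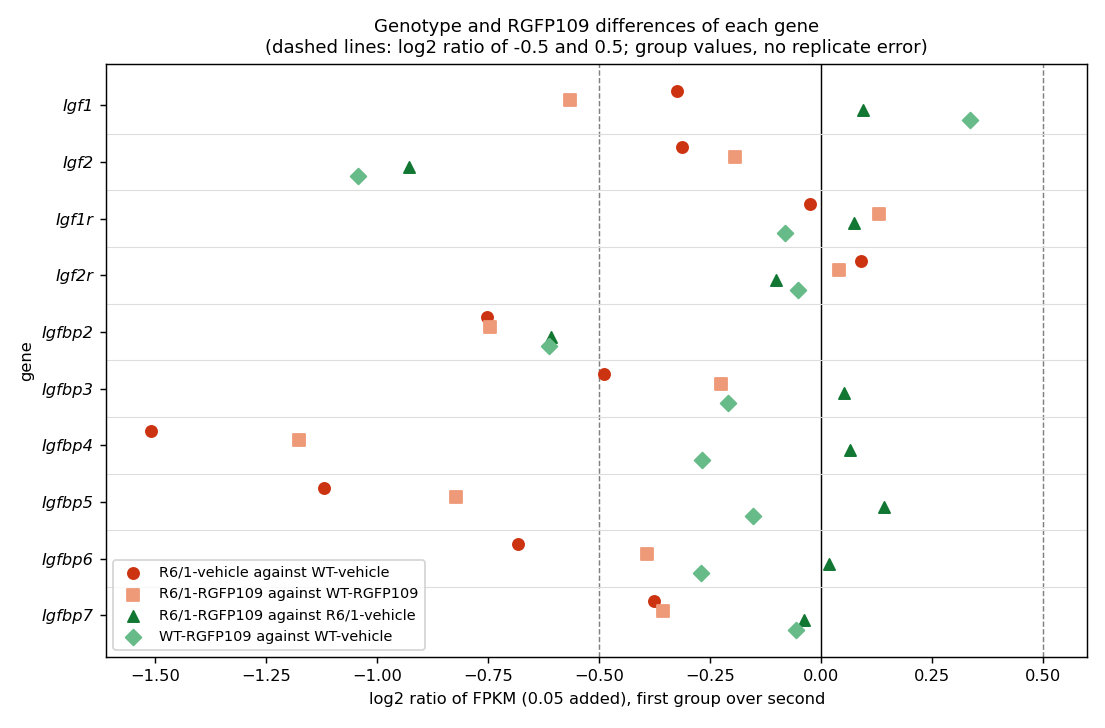
Log2 ratio of FPKM (0.05 added) of each gene in 4 comparisons, with dashed lines at -0.5 and 0.5 and no replicate error. The genotype ratios (circles and squares) of Igfbp4 and Igfbp5 lie far to the left, from -1.51 to -0.82, while the RGFP109 ratios (triangles and diamonds) lie beyond -0.5 for Igf2 and Igfbp2 and for no other gene.

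RGFP109 went with lower Igf2 and Igfbp2 in both genotypes. In R6/1 mice Igf2 had 15.7 FPKM with vehicle and 8.25 with RGFP109, a log2 ratio of -0.93 or a 1.91-fold lower value, and 1.29% of 16840 genes had a lower ratio. In WT mice, which are different animals, it had 18.2 and 8.81 FPKM, a log2 ratio of -1.04 or a 2.07-fold lower value, and 1.65% of 16957 genes had a lower ratio. Igfbp2 had 17.1 and 11.2 FPKM in R6/1 mice (log2 ratio -0.61) and 26.9 and 17.6 FPKM in WT mice (log2 ratio -0.61), 1.53-fold lower in each. These were the only members past the fold in either RGFP109 comparison. The count of 2 of 10 stands beside 3.14% of all genes lower and 2.62% higher in R6/1 mice, and 4.92% lower and 3.19% higher in WT mice. In both RGFP109 comparisons together, 0.998% of 16534 genes were lower past the fold in each. The median over the members was 0.03 in R6/1 mice and -0.18 in WT mice, against 0.001 and -0.01 over all genes.

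For the other 5 binding proteins, neither RGFP109 comparison passed the fold. In R6/1 mice their log2 ratios ran from -0.04 for Igfbp7 to 0.14 for Igfbp5, with 0.06 for Igfbp4, 0.05 for Igfbp3 and 0.02 for Igfbp6. In WT mice they ran from -0.27 for Igfbp6 and Igfbp4 to -0.06 for Igfbp7, with -0.21 for Igfbp3 and -0.15 for Igfbp5. The smaller genotype difference of Igfbp4 under RGFP109 thus came with a small difference in R6/1 mice, from 14.2 to 14.8 FPKM, and a larger one in WT mice, from 37.8 to 31.4 FPKM. Igf1 was at 0.34 in WT mice and 0.10 in R6/1 mice. The receptors stayed between -0.10 and 0.07 in both.

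The RGFP109 ratio in R6/1 mice minus that in WT mice was 0.33 for Igfbp4, 0.29 for Igfbp5, 0.29 for Igfbp6, 0.26 for Igfbp3, 0.15 for Igf1r and 0.11 for Igf2. It was 0.02 for Igfbp7, 0.003 for Igfbp2, -0.05 for Igf2r and -0.24 for Igf1. Over 16534 genes this difference had a median of 0.01 and quartiles of -0.09 and 0.12. All 4 groups enter it, so it equals the difference between the genotype ratios but for the separate scaling of the tables, and it was not tested.

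**Figure D3:**
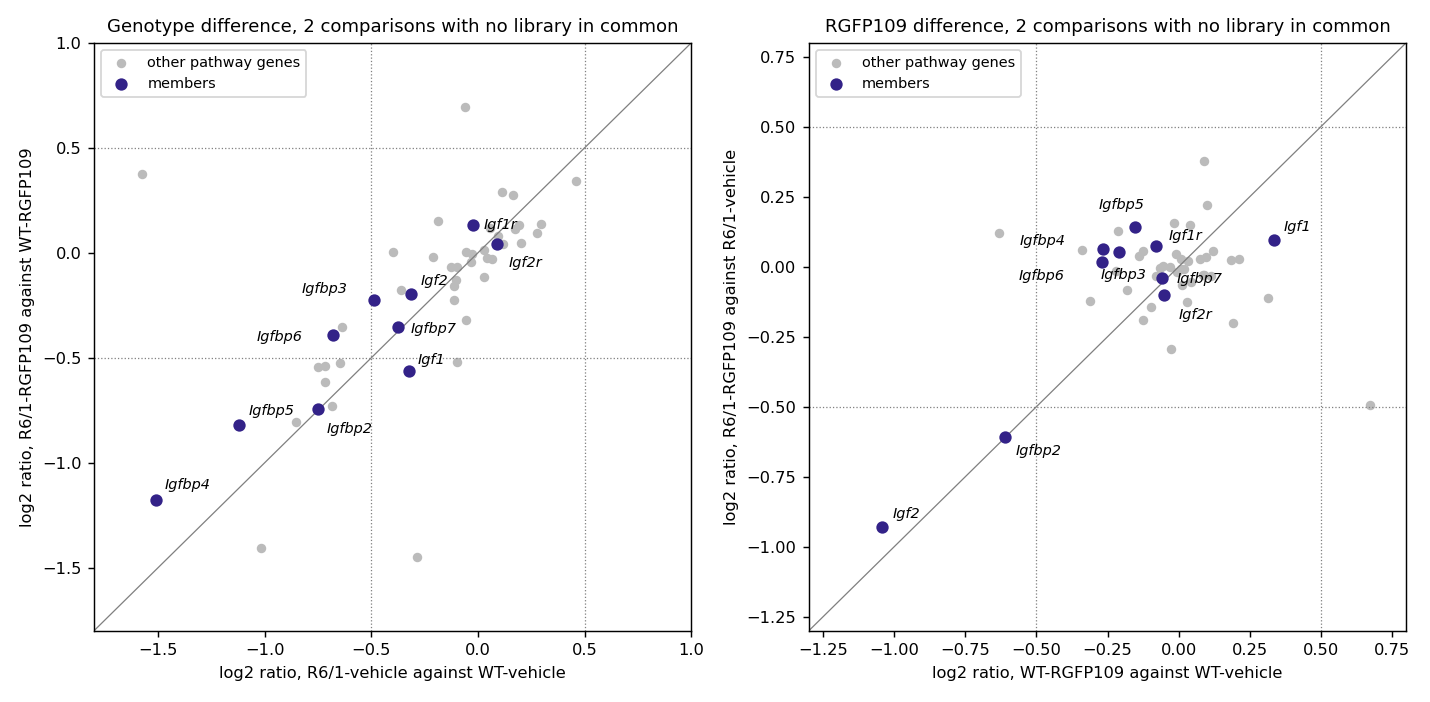
Log2 ratios of the members (dark points) and of other pathway genes (grey) in 2 pairs of comparisons that share no library, genotype at left and RGFP109 at right, with a line of equal ratios and dotted lines at -0.5 and 0.5. Igfbp2, Igfbp4 and Igfbp5 lie in the lower left corner of the genotype panel and Igf2 and Igfbp2 in that of the RGFP109 panel. Of the pathway genes, 2 lie outside the axes of each panel.

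R6/1-RGFP109 against WT-vehicle combines both factors and shares its libraries with the comparisons above. Igfbp4 (-1.44), Igfbp2 (-1.36), Igf2 (-1.24), Igfbp5 (-0.98) and Igfbp6 (-0.66) were lower past the fold, 5 of the 10 members, where 13.8% of all genes were lower and 5.42% higher. Igfbp2 had 27.9 FPKM in WT-vehicle and 10.9 in R6/1-RGFP109, a 2.57-fold lower value, as against 1.69-fold for genotype and 1.53-fold for RGFP109 alone. Igf2 was 2.37-fold lower, beside 2.07-fold for RGFP109 in WT mice.

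Summed over genes, per transcript length, the 6 binding proteins had 142, 76.0, 118 and 72.8 FPKM in WT-vehicle, R6/1-vehicle, WT-RGFP109 and R6/1-RGFP109. The ligands summed to 19.2, 15.8, 9.78 and 8.57 FPKM and the receptors to 12.3, 12.9, 11.8 and 12.8 FPKM. Per FPKM of ligand there were thus 7.40 FPKM of binding proteins in WT-vehicle and 4.80 in R6/1-vehicle, and 12.04 and 8.49 in the WT and R6/1 mice given RGFP109. The ratio was lower in R6/1 than in WT mice of the same treatment, and higher with RGFP109 than with vehicle in the same genotype. Igfbp4 made up 27.2% of the binding protein sum in WT-vehicle and 27.3% in WT-RGFP109, against 18.2% in R6/1-vehicle and 20.0% in R6/1-RGFP109. Igf2 exceeded Igf1 by a factor of 32.1 in WT-vehicle and 33.0 in R6/1-vehicle, and of 12.1 and 16.1 in the RGFP109 groups of WT and R6/1 mice.

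**Figure D4:**
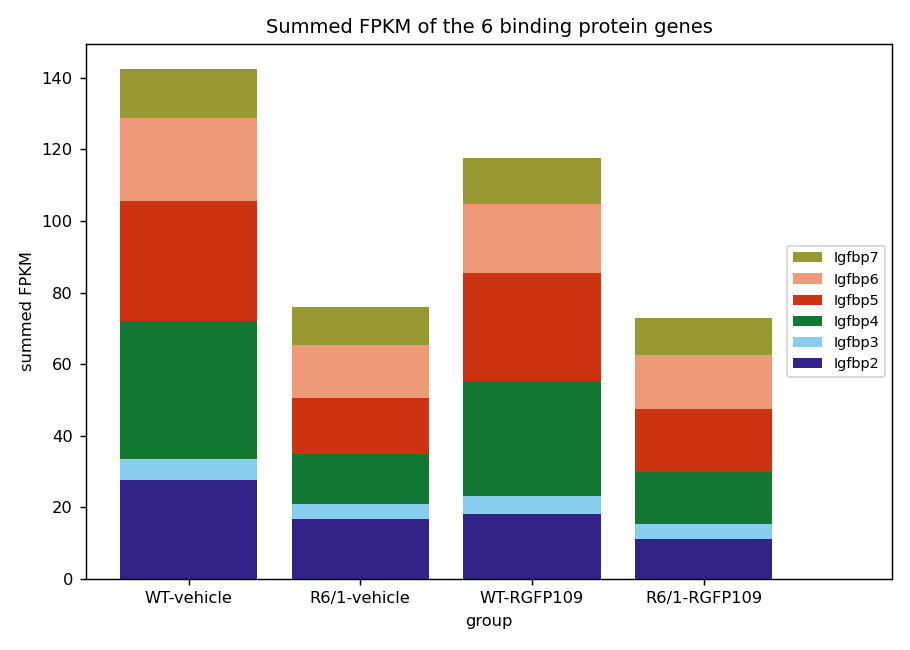
Summed FPKM of the 6 binding protein genes in each group, stacked by gene. The sum is 142 FPKM in WT-vehicle and 118 in WT-RGFP109, above 76.0 and 72.8 in the R6/1 groups, and the Igfbp4 and Igfbp5 segments shorten most between WT and R6/1 bars.

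Choroid plexus markers, like Igf2 and Igfbp2, were lower with RGFP109 in both genotypes. Their sum was 15.0-fold lower in R6/1 mice and 4.6-fold lower in WT mice. Igf2 was 1.91-fold and 2.07-fold lower, and Igfbp2 1.53-fold lower in each. The striatal dissections held RNA of choroid plexus markers, and the sum over the 12 listed genes was 1491 FPKM in WT-vehicle and 650 in R6/1-vehicle, and 324 and 43.3 FPKM in the WT and R6/1 mice given RGFP109, most of it Ttr, the transthyretin gene. With RGFP109 all 12 markers were lower past the fold in R6/1 mice (log2 ratios from -4.33 to -0.61, median -2.35) and all 12 in WT mice (from -2.24 to -0.52, median -1.82). Ttr had 631 FPKM with vehicle and 31.3 with RGFP109 in R6/1 mice, and 1395 and 295 in WT mice. Folr1, a folate receptor gene, had 4.33 and 0.668 FPKM in R6/1 mice and 9.47 and 2.03 in WT mice. None of the 12 was listed at 0. In the genotype comparisons 11 of 12 were lower past the fold with vehicle and 10 of 12 with RGFP109, with sums 2.29-fold and 7.49-fold lower. Igf2 was 1.24-fold and 1.15-fold lower in those comparisons and Igfbp2 1.69-fold and 1.68-fold lower. The part of this tissue in the Igf2 and Igfbp2 values was not tested.

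The meningeal and perivascular fibroblast list moved less, with sums of 53.4, 53.8, 44.2 and 43.1 FPKM. Of its 12 genes, 4 were lower past the fold with RGFP109 in R6/1 mice (Slc13a4, Aldh1a2, Ogn and Col3a1, median -0.44) and 3 in WT mice (Slc13a4, Dcn and Col1a1, median -0.06). Slc13a4, a sulfate transporter gene, was at -1.11 and -1.07, and Dcn, the gene of the matrix proteoglycan decorin, was at -0.88 in WT mice. In the genotype comparison with vehicle, 1 gene of this list was lower (Dcn) and 3 were higher (Col3a1, Slc22a6 and Aldh1a2) past the fold. The endothelial, mural and microglial lists differed by at most 1.17-fold in sum in any of the 4 comparisons. Their part in the result was not tested.

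**Figure D5:**
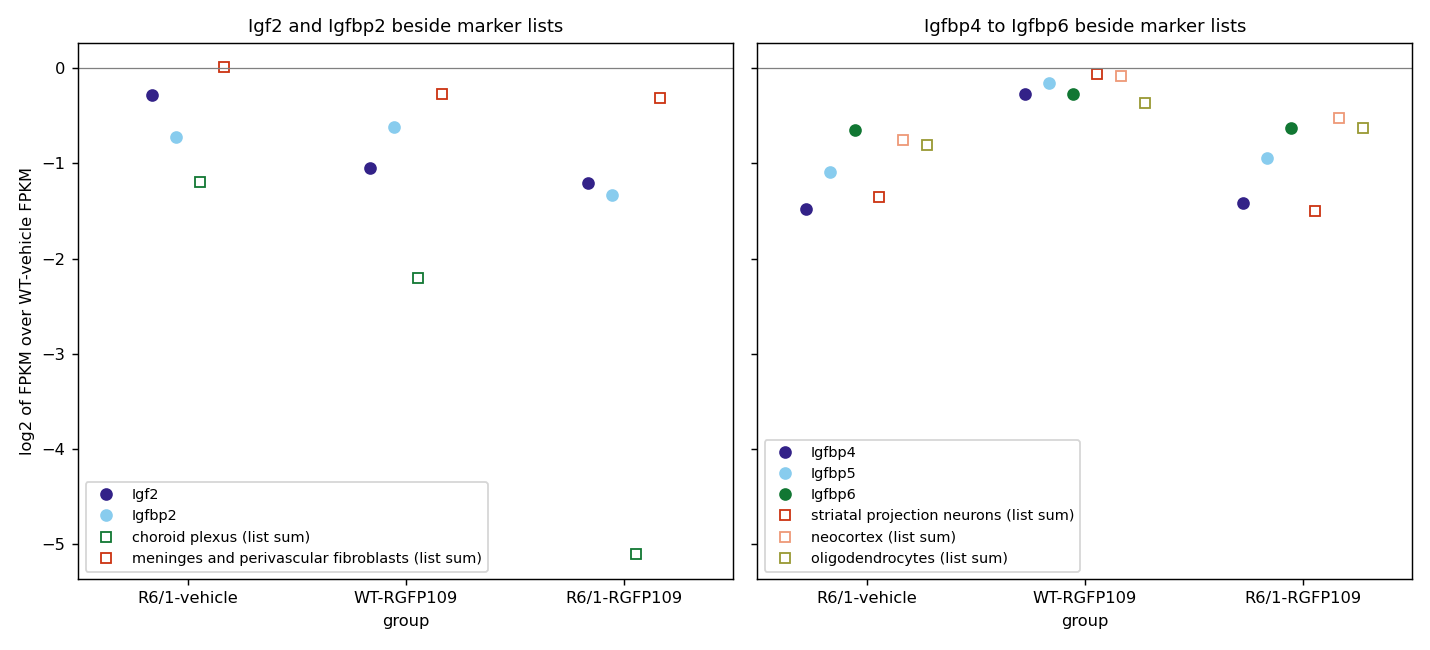
Log2 of the group value over that of WT-vehicle for members (filled circles) and for summed marker lists (open squares). At left, Igf2 and Igfbp2 reach -1.21 and -1.33 in R6/1-RGFP109, where the choroid plexus sum is at -5.10. At right, every member and list sum shown lies below 0 in both R6/1 groups. In WT-RGFP109 Igfbp4 and Igfbp6 are at -0.27 and Igfbp5 is at -0.15. There the projection neuron sum is at -0.06, the neocortex sum at -0.08 and the oligodendrocyte sum at -0.36.

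Markers of neurons and glia were also lower by genotype. The sum over 10 genes of striatal projection neurons, which marks the dissection as striatum, was 3349 FPKM in WT-vehicle and 1313 in R6/1-vehicle, and 3216 and 1181 FPKM in the WT and R6/1 mice given RGFP109. Of these genes 9 were lower past the fold in each genotype comparison (medians -1.44 and -1.37) and none passed it in either RGFP109 comparison (medians -0.14 in R6/1 and -0.10 in WT mice). Penk, which encodes the opioid precursor proenkephalin, was at -2.01 with vehicle and -2.17 with RGFP109. The interneuron list was 2.04-fold and 2.09-fold lower in sum by genotype. The dissections also held RNA of the neocortex markers, with sums of 467, 277, 443 and 324 FPKM. The neocortex list was 1.68-fold lower with vehicle and 1.37-fold lower with RGFP109, the oligodendrocyte list 1.75-fold and 1.20-fold, and the astrocyte list 1.39-fold and 1.40-fold. Igfbp4 was 2.86-fold and 2.27-fold lower in the same 2 comparisons. Igfbp2, unlike the projection neuron markers, was also lower past the fold with RGFP109. The part of these cell types in the binding protein values was not tested.

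The genes whose 4 group levels lay closest to those of a member were sought among 12996 genes with at least 1 FPKM in every group, by the Euclidean distance of the centred log2 levels. With 4 points per gene, the distances are a description only. For Igfbp4 they were Mas1 (distance 0.07), a G protein-coupled receptor gene, Pcp4 (0.10), a calmodulin regulator gene, and Itpka (0.11), an inositol trisphosphate kinase gene. For Igfbp5 they were Rasl11b (0.04), Ppp1r9b (0.06), which encodes the spine protein spinophilin, and Rassf3 (0.07). For Igfbp6 they were Syt9 (0.03), Kremen1 (0.03) and C8g (0.04). For Igfbp2 they were Crabp2 (0.08), a retinoic acid binding protein gene, Grp (0.15) and Cgnl1 (0.17). For Igf2 they were Slc13a4 (0.15), which is also on the meningeal list, Pcolce (0.17), a procollagen processing gene, and Msx1 (0.26). The nearest member to Igfbp4 was Igfbp5, at 0.39, and the nearest to Igf2 was Igfbp2, at 0.63. Igf1 was too low for this comparison.

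Around the members, 48 further genes of the pathway or related to it by name were examined in 6 lists. Of these, 42 had enough signal in each genotype comparison. With vehicle 11 of 42 were lower and none higher past the fold (median log2 ratio -0.10), and with RGFP109 11 of 42 were lower and 1, Igfbpl1, higher (median -0.04), beside the 13.4% and 11.7% lower over all genes. In both, 9 of 42 were lower past the fold (21.4%, beside 7.74% over all genes). They were Ins2, Igflr1, Akt2, Foxo1, Stc1, Htra1, Adam12, Sst and Gh. Igflr1, the receptor gene of the IGF-like family, is counted here for its name only. Among the 9, Ins2 and Gh are listed at 0 in 1 group each, and Adam12 had 0.699 FPKM or less in each group. Among the binding protein proteases and their inhibitors, Htra1, a serine protease gene, was at -0.72 with vehicle (57.5 against 94.5 FPKM) and -0.54 with RGFP109. Stc1, which encodes stanniocalcin, an inhibitor of pregnancy-associated plasma protein proteases, was at -1.02 and -1.41, at a level of 1.83 FPKM or less in each group. Pappa itself was below the filter in every group.

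Among kinases and effectors, the share lower past the fold by genotype was near that over all genes. Of 16 kinases and effectors, 2 were lower past the fold in each genotype comparison and none was higher, a share of 12.5% beside 13.4% with vehicle and 11.7% with RGFP109 over all genes. They were Akt2, an AKT kinase gene (-0.72 with vehicle and -0.61 with RGFP109), and Foxo1, a transcription factor restrained by AKT (-0.75 and -0.54). The medians of this list were -0.04 in both. Of 10 receptors and adaptors, 1 was lower past the fold with vehicle (Insrr, at 0.189 FPKM or less in every group) and none with RGFP109. The insulin receptor gene Insr had 7.97, 8.69, 7.95 and 8.59 FPKM. In the growth hormone axis, Sst, the somatostatin gene of a class of interneurons, was at -0.85 and -0.80, with 653 FPKM in WT-vehicle and 361 in R6/1-vehicle.

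With RGFP109, 1 of 41 pathway genes was lower (Ins2) and 1 higher (Ghrh) past the fold in R6/1 mice (median -0.004), and 3 of 42 were lower (Ins2, Igfbpl1 and Gh) and 1 higher (Pappa2) in WT mice (median 0.002). These shares, 2.44% lower and 2.44% higher in R6/1 mice and 7.14% and 2.38% in WT mice, stand beside 3.14% and 2.62%, and 4.92% and 3.19%, over all genes. Of these genes, Ghrh, Gh and Pappa2 stayed under 1 FPKM in every group. Ins2 is the neighbour of Igf2 at a gap of 11839 bases, and encodes insulin. It had 1.07 FPKM in WT-vehicle, 0.155 in R6/1-vehicle and 0.279 in WT-RGFP109, and it is listed at 0 in R6/1-RGFP109, so that its place past the fold in R6/1 mice rests on the 0.05 FPKM added. H19, the imprinted noncoding neighbour on the other side, stayed at or below 0.0910 FPKM in every group, and of the mRNA-binding proteins named for Igf2, Igf2bp2 and Igf2bp3 did not pass the fold in any of these 4 comparisons and Igf2bp1 was below the filter. No kinase, effector, receptor or adaptor of the lists passed the fold in either RGFP109 comparison. Igfbpl1, a gene related to the binding proteins, was at -0.63 in WT mice and 0.12 in R6/1 mice.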

How the data were processed

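Striatal RNA-seq of 24 mice in 4 groups was analysed. Libraries (TruSeq RNA kit, single-end reads of 51 bases) were aligned by the authors with STAR 2.5.0b to RefSeq mm10, and FPKM values were computed with Cufflinks 2.2.1 and Cuffdiff. The authors deposited 6 Cuffdiff tables of 24341 genes, of which 24340 are shared, each with 1 FPKM value per group. Their columns of fold changes, test statistics, p-values and q-values were not used. Values per library were not used, and depth is unknown, so no test was made and no interval or detection limit is given.

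Log2 ratios were taken within the table of a pair after adding 0.05 FPKM, for genes over 0.1 FPKM in at least 1 group, with a minimum absolute log2 ratio of 0.5. The calculation was tested on simulated data. All 10 members were named, with up to 4 genes per list that passed the fold at a mean of at least 1 FPKM, and the 3 genes of closest pattern for members spanning over 0.5 on the log2 scale. Insr, Pappa and H19 are given as reference points and genes outside this rule (Ins2, Adam12, and those named for a count of 5 or fewer) were chosen after their values were seen. The members and lists were chosen with earlier results of these data known. Positions and promoter windows came from RefSeq, GRCm38.p6, and all 10 members matched by symbol. Alternatives covered the pseudocount, the filter, the minimum ratio, centring and indirect tables. Python 3.11.15, numpy 2.4.6, pandas 2.3.3 and matplotlib 3.10.9 were used.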

Additional observations from a re-analysis of the deposited data

How the results depend on the processing

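The count of members past the fold depended on the minimum ratio. With an absolute log2 ratio above 1 in place of 0.5, it was 2 in place of 4 for R6/1-vehicle against WT-vehicle, 1 in place of 4 for R6/1-RGFP109 against WT-RGFP109, 0 in place of 2 for RGFP109 in R6/1 mice, 1 in place of 2 for RGFP109 in WT mice and 3 in place of 5 for R6/1-RGFP109 against WT-vehicle. Beyond 1, the shares of all genes that were lower were 4.45%, 3.7%, 1.14%, 1.79% and 4.4% in the same order of comparisons. The shares higher were 1.74%, 1.6%, 1.16%, 1.46% and 1.73%. With a ratio above 0.25 the count was 8, all lower, for R6/1-vehicle against WT-vehicle, where 26.3% of all genes were lower and 17.3% higher. For RGFP109 in WT mice it was 5, with 4 lower and 1 higher, where 11.3% of all genes were lower and 7.41% higher. The filters, the centring and the indirect tables kept every count within 1.5 times. Of 200 single ratios under 4 alternatives, 1 changed sign, Igf2r in R6/1-RGFP109 against WT-vehicle, which is near 0 (from -0.0093 to 0.0066 when centred). With 1 FPKM added 4 moved by over 0.1, and 1 of these crossed the minimum, Igf1 in R6/1-RGFP109 against WT-RGFP109, from -0.56 to -0.23. No paired analysis was possible because the tables hold 1 value per group and carry no replicate numbers. For the same reason leaving out each library was not run.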
